A study of Mus musculus with 12 samples.

Results

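The genes described here are 10 enzymes of methionine and one-carbon metabolism in mouse liver, namely Mat1a, Gnmt, Nnmt, Ahcy, Bhmt, Bhmt2, Dmgdh, Sardh, Cbs and Cth. They were taken by name from a bulk RNA-seq count table of 55291 genes, and all 10 were among the 18305 genes that passed a filter on low counts and were tested. The study asked how exercise training alters the liver of mice with diet-induced fatty liver. It covered male C57BL/6 mice, aged 6 weeks at the start, with no genetic alteration named in the labels. The HFD+RE group received the high-fat diet D12492 and at least 12 weeks of the training labelled RE, the HFD+AE group received the same diet and at least 12 weeks of the training labelled AE, the HFD group received the diet with no training named in its label, and the NC group received normal diet. The high-fat diet had been given for 8 weeks before the training began. The abbreviations AE and RE are not spelled out in the labels. Each group was represented by 3 libraries, numbered as in the labels (HFD+RE 3, 4 and 5, HFD+AE 1, 2 and 3, HFD 1, 2 and 3, and NC 2, 4 and 5), from arms of 8 mice on high-fat diet or 13 mice on normal diet. The labels do not say whether 1 library stands for 1 mouse, so the p-values below reflect variation among libraries, part of which could be technical.

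In the methionine cycle, methionine adenosyltransferase, encoded in adult liver by Mat1a, makes S-adenosylmethionine (SAM), the methyl donor of most methylation reactions. Methyltransferases such as glycine N-methyltransferase (Gnmt) and nicotinamide N-methyltransferase (Nnmt) convert SAM to S-adenosylhomocysteine, which Ahcy hydrolyses to homocysteine. Homocysteine is either remethylated to methionine, in liver partly by betaine-homocysteine methyltransferases (Bhmt, and Bhmt2, which uses S-methylmethionine), or committed to cysteine by cystathionine beta-synthase (Cbs) and cystathionine gamma-lyase (Cth). The dimethylglycine that Bhmt leaves from choline-derived betaine is demethylated in mitochondria by Dmgdh and then Sardh, which return the one-carbon units to folate and leave glycine. Liver is the main site of this pathway, and Gnmt is an abundant cytosolic methyltransferase there.

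Library totals ran between 44373214 and 77665729 assigned reads, and levels are given as CPM, read counts per 1e6 reads, after scaling of library sizes. On the first principal component of all tested genes, which held 40.6% of the variance, HFD+RE 3 scored -36.6 against 50.4 and 52.6 for HFD+RE 4 and 5, HFD+AE 3 scored 14 against -40.4 and -36.9 for HFD+AE 1 and 2, and HFD 2 scored 23 against 67.4 and 80.8 for HFD 1 and 3. These 3 libraries stood apart from their groups, and results are given without HFD+AE 3 and HFD+RE 3 together, and without HFD 2, where that changes a call. Mitochondrial ribosomal RNA made up 0.685% to 1.71% of reads in HFD+RE, 0.771% to 0.867% in HFD+AE, 1.76% to 3.26% in HFD and 0.708% to 0.924% in NC libraries. Summed hepatocyte markers (5 of 6 listed genes in the table, led by albumin) ran between 84030 and 106800 CPM in HFD+RE, 100300 and 108500 in HFD+AE, 56030 and 79950 in HFD, and 101100 and 120000 in NC. Summed stellate cell and fibroblast markers (8 of 8 tested) were at 263 to 362 CPM in HFD and 138 to 157 CPM in NC, while T and NK cell markers were at 2.62 to 25.2 CPM in HFD and 1.93 to 7.20 CPM in NC. Of the 6 listed adipocyte markers, Adipoq, Lep, Retn and Plin1 had 22, 0, 12 and 12 reads in all 12 libraries together. The others, Cfd and Car3, ran between 0.268 and 45 CPM and between 2450 and 4270 CPM over the libraries. Their adjusted p in HFD against NC was 0.0045 for Cfd and 0.23 for Car3 (edgeR). Of the hepatocyte markers, Alb (adjusted p = 0.031) and Hnf4a (0.016) passed in HFD against NC with edgeR, whereas Apob (0.11), Ttr (0.28) and Apoa1 (0.99) did not. None of these 5 passed in HFD+AE or HFD+RE against HFD. In such bulk samples fewer cells of a type and less RNA per cell cannot be told apart.

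The 10 genes together took 0.987% to 1.38% of all reads in HFD+RE, 1.17% to 1.395% in HFD+AE, 1.003% to 1.17% in HFD and 0.717% to 0.878% in NC libraries. Per transcript length, in TPM, a length-corrected CPM that sums to 1e6, the genes of SAM synthesis and disposal led in NC liver, with Gnmt at 2020 ± 180 TPM, Mat1a at 1796 ± 719 TPM and Ahcy at 1136 ± 16.8 TPM (SD, n = 3). The ranges of Gnmt and Mat1a overlapped, as did those of Mat1a and Ahcy. Bhmt followed at 430 ± 138 TPM, and below it Sardh, Dmgdh, Cth, Nnmt, Cbs and Bhmt2 stood between 315 ± 31.8 and 154 ± 15.2 TPM, each with a range that overlapped its neighbour's in this order. In HFD liver the order began with Mat1a at 2318 ± 221 TPM, whose libraries did not overlap those of the next gene. Gnmt, Bhmt and Ahcy then stood side by side at 1090 ± 278, 1042 ± 207 and 979 ± 163 TPM in HFD, with overlapping ranges, and Cbs was last at 76.3 ± 1.74 TPM, below every library of the next gene, Cth. Mat1a also led in HFD+RE, at 2927 ± 960 TPM, and in HFD+AE, at 3670 ± 581 TPM, and Cbs was last in both, at 113 ± 25.6 and 86.1 ± 6.99 TPM.

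**Figure D1:**
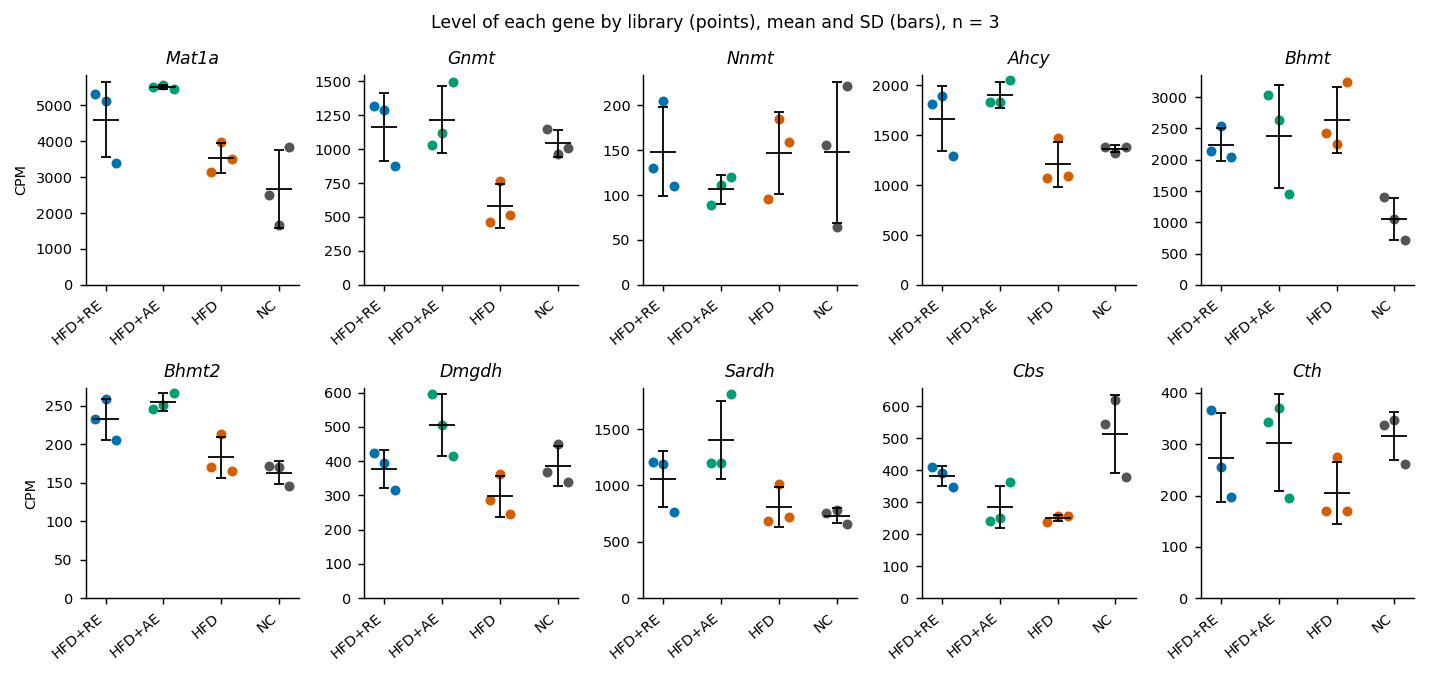
Level of each of the 10 genes in CPM (linear axes from 0) in the HFD+RE, HFD+AE, HFD and NC groups; points are libraries, horizontal bars are means and error bars are SD (n = 3). The HFD points of Bhmt lie above, and those of Gnmt and Cbs below, every NC point, and the HFD+RE and HFD+AE points of Gnmt lie above every HFD point.

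The first comparison, HFD against NC, asks what the high-fat diet alone did to these transcripts. Bhmt, the betaine-dependent remethylating enzyme, rose 2.5-fold in HFD livers. Cbs, the entry enzyme of transsulfuration, fell to 0.489 times and Gnmt, a major consumer of hepatic SAM, fell to 0.556 times the NC level. The other 7 genes did not pass the test. Thus 3 of 10 genes were called at an adjusted p below 0.05, where 15.6% of all tested genes were called, 8.38% as higher and 7.19% as lower. The median log2 change of the 10 was -0.09, against 0.01 over all tested genes.

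For Mat1a, which makes SAM, HFD libraries 1, 2 and 3 had 3135, 3968 and 3518 CPM, against 2497, 1676 and 3842 CPM in NC libraries 2, 4 and 5. NC 5 lay within the HFD range, and the NC libraries spread more widely than the HFD libraries. The log2 change was 0.41 (SE 0.281, adjusted p = 0.32, edgeR quasi-likelihood test with Benjamini-Hochberg adjustment over all tested genes, as for every adjusted p below unless another tool is named).

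Gnmt, which methylates glycine to sarcosine and so removes excess SAM, had 465, 763 and 512 CPM in HFD libraries, against 1151, 965 and 1010 CPM in NC libraries. Every HFD library was below every NC library, HFD 2 being the closest to the NC group. The log2 change was -0.85 (SE 0.247, 95% interval -1.38 to -0.313, adjusted p = 0.038). Nnmt, which methylates nicotinamide at the expense of SAM, had 95.8, 185 and 159 CPM in HFD and 156, 64.7 and 221 CPM in NC libraries. The HFD range lay inside the NC range, and the interval of its log2 change, -0.828 to 0.811, was too wide to separate a fall from a rise (adjusted p = 0.99).

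Ahcy, the only mammalian enzyme known to hydrolyse S-adenosylhomocysteine, had 1073, 1470 and 1088 CPM in HFD libraries, against 1380, 1325 and 1386 CPM in NC libraries. HFD 1 and 3 were below the NC group and HFD 2 above it, with a log2 change of -0.17 (SE 0.206, adjusted p = 0.57).

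Bhmt had 2428, 2252 and 3235 CPM in HFD libraries, against 1397, 1053 and 722 CPM in NC libraries. The groups did not overlap, and the lowest HFD library exceeded the highest NC library. Its log2 change was 1.32 (SE 0.304, 95% interval 0.665 to 1.97, adjusted p = 0.018). Bhmt2, its neighbour on chromosome 13, had 170, 213 and 165 CPM in HFD and 172, 171 and 146 CPM in NC libraries, with overlapping ranges. The log2 change of Bhmt2 was 0.17 (SE 0.173, adjusted p = 0.51). Of the mitochondrial enzymes downstream of Bhmt, Dmgdh had a log2 change of -0.37 (SE 0.217, adjusted p = 0.23) and Sardh of 0.14 (SE 0.248, adjusted p = 0.71), both with overlapping groups.

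Cbs, which condenses homocysteine with serine, had 240, 256 and 258 CPM in HFD libraries, against 545, 618 and 379 CPM in NC libraries. The HFD libraries lay within a narrow band below every NC library. The log2 change was -1.03 (SE 0.221, 95% interval -1.51 to -0.558, adjusted p = 0.013). Cth, the next enzyme of transsulfuration, had 171, 276 and 170 CPM in HFD and 337, 347 and 262 CPM in NC libraries. HFD 2 lay inside the NC range and the other HFD libraries below it, and the log2 change was -0.62 (SE 0.297, adjusted p = 0.16). Cth was called without HFD+AE 3 and HFD+RE 3 (-0.62, adjusted p = 0.04).

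Leaving out a library ended these calls in several cases. Bhmt was no longer called without HFD 1 (adjusted p = 0.056), HFD 3 (0.086) or NC 4 (0.067), Cbs without the same libraries (0.067, 0.058 and 0.06), and Gnmt without HFD 1 (0.16), HFD 3 (0.15), NC 2 (0.11), NC 4 (0.087), NC 5 (0.066) or HFD+AE 2 (0.053), although each change kept its sign. The higher mitochondrial ribosomal RNA share, lower hepatocyte marker sum and higher stellate cell marker sum of the HFD libraries given above moved with these changes. So did lower sums of periportal hepatocyte markers (6 of 6 tested, 5046 to 5605 CPM in HFD and 6759 to 7749 CPM in NC) and endothelial markers (6 of 6, 81.3 to 137 CPM in HFD and 187 to 230 CPM in NC), and higher sums of B and plasma cell markers (5 of 5, 8.94 to 32.3 CPM in HFD and 5.87 to 6.64 CPM in NC) and neutrophil markers (4 of 5, 7.20 to 13.2 CPM in HFD and 4.52 to 5.69 CPM in NC). Taken singly, no periportal marker passed in HFD against NC (adjusted p between 0.1 and 0.33), and the hepatocyte sum was mostly albumin. Kupffer cell and macrophage markers were lower as well (56.1 to 133 CPM in HFD and 145 to 226 CPM in NC). The part of this RNA share and these marker sums in the changes was not tested. Within the HFD group, HFD 2, which had the lowest mitochondrial ribosomal RNA share of its group, was the highest library for 8 of 10 genes, Bhmt and Cbs being the exceptions.

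The promoters of the 3 called genes are shown because these genes moved in opposite directions. RefSeq sequences (GRCm38.p6) were at hand for 7 of the 10 genes, and the 250 bases before the RefSeq start site are given 5′ to 3′ on the gene's own strand. Capitals mark the letters of motifs searched on both strands: the E-box CACGTG, the CCAAT box CCAAT, the TATA box TATAAA and the nuclear receptor half-site AGGTCA; no marked match overlapped another. The motifs were chosen with the results known.
Gnmt, chr17:46729166-46729415, minus strand: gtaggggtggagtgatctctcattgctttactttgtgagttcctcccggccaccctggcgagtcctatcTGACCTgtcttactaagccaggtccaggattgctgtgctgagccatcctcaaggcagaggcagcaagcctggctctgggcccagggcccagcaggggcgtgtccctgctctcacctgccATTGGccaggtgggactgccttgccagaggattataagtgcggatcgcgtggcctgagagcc
Bhmt, chr13:93637759-93638008, minus strand: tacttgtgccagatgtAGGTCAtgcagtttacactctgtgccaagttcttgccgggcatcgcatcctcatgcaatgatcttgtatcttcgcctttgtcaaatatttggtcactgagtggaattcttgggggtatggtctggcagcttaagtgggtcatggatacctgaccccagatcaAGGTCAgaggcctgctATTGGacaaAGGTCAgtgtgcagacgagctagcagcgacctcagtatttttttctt
Cbs, chr17:31637206-31637455, minus strand: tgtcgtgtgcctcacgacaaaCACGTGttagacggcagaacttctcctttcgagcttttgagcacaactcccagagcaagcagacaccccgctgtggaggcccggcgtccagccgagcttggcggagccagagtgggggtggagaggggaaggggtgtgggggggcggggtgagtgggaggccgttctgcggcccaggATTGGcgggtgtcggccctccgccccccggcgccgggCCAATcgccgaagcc
The Bhmt stretch held 3 AGGTCA half-sites, beginning at -234, -72 and -47 from the start site, and 1 CCAAT box at -56. The Gnmt stretch held 1 half-site at -181 and 1 CCAAT box at -62. The Cbs stretch held an E-box at -229, CCAAT boxes at -52 and -15, and no half-site. Half-sites were also in the stretches of Ahcy (-205) and Sardh (-204), which were not called, and Ahcy had a CCAAT box at -237. The stretches of Bhmt2 and Dmgdh held no match. These letters thus do not set the called genes apart. Of 32851 RefSeq promoter stretches of this length, 14% held AGGTCA, 33.8% CCAAT, 6.02% CACGTG and 12.4% TATAAA. The Cbs stretch had 21 CpG dinucleotides and 68% G and C, against 5 and 48% in the Bhmt stretch. For Bhmt the gene model used for counting extends 203 bases upstream of the RefSeq start, so much of the stretch lies inside that model. A match to these letters is a description and does not show binding.

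**Figure D2:**
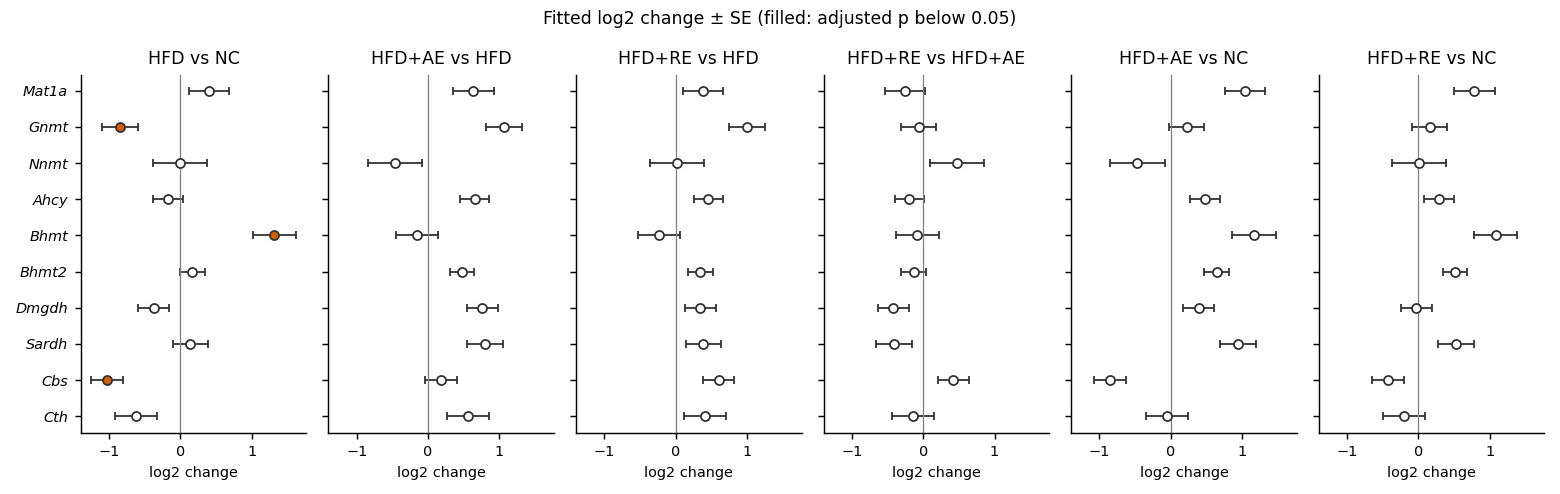
Fitted log2 change (x axis) with its SE for each of the 10 genes (rows) in 6 comparisons (panels, first-named group minus second); filled points passed an adjusted p of 0.05. Filled points occur for Gnmt, Bhmt and Cbs in HFD against NC, and 8 of the 10 points of HFD+AE against HFD lie right of 0.

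The second comparison, HFD+AE against HFD, asks what the AE training did on the high-fat diet. None of the 10 genes passed the adjusted threshold with edgeR, where 0.0492% of all tested genes did (9 genes). At an unadjusted p below 0.05, 6 of 10 genes were higher and 0 lower, beside 13.3% of all tested genes higher at the same threshold. These were Mat1a, Gnmt, Ahcy, Bhmt2, Dmgdh and Sardh, and for each every HFD+AE library was above every HFD library. The share of all tested genes whose groups separate in this way was not counted in any comparison, so separate groups are only described. DESeq2 called 5 of the 10, namely Gnmt, Ahcy, Dmgdh, Sardh and Bhmt2, beside 12.1% of the genes to which it gave an adjusted p (2211 genes). The median log2 change of the 10 genes was 0.60, against 0.0035 over all tested genes. Without HFD 2 edgeR called 4 of the 10 and 1691 genes.

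Gnmt had the largest difference of the 10 in this comparison, at 1028, 1122 and 1495 CPM in HFD+AE libraries, against 465, 763 and 512 CPM in HFD libraries. The log2 difference was 1.07 (SE 0.248, 95% interval 0.532 to 1.60, adjusted p = 0.061, and 0.0019 with DESeq2). Over the 19 alternatives its adjusted p ran between 0.0019 and 0.29 and its log2 difference between 0.88 and 1.38. It passed with edgeR without HFD 2 (0.023), without HFD+RE 3 (0.027), without HFD+AE 3 and HFD+RE 3 together (0.023), and with no filter on low counts (0.012).

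Mat1a stood at 5502, 5551 and 5456 CPM in HFD+AE, the tightest group of this gene, against 3135, 3968 and 3518 CPM in HFD (log2 difference 0.64, SE 0.282, adjusted p = 0.17). Ahcy had 1831, 1830 and 2054 CPM in HFD+AE libraries, against 1073, 1470 and 1088 CPM in HFD libraries (log2 difference 0.65, SE 0.207, adjusted p = 0.088). Mat1a, Gnmt and Ahcy thus each had separate groups without passing the adjusted threshold with edgeR, and DESeq2 did not call Mat1a. As the share of all tested genes that separate was not counted, this sets no step of the cycle apart.

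Dmgdh, which demethylates dimethylglycine, had 595, 507 and 414 CPM in HFD+AE, against 285, 363 and 245 CPM in HFD libraries (log2 difference 0.76, SE 0.218, adjusted p = 0.073). Sardh, which takes over the sarcosine so formed and that made by Gnmt, had 1200, 1203 and 1807 CPM in HFD+AE, against 688, 1011 and 723 CPM in HFD (0.80, SE 0.249, adjusted p = 0.086). Bhmt2 had 245, 251 and 267 CPM in HFD+AE, against 170, 213 and 165 CPM in HFD libraries (0.48, SE 0.174, adjusted p = 0.12). In these 3 genes the lowest HFD+AE library stood above HFD 2, the highest of the HFD group. Without HFD 2, Dmgdh (adjusted p = 0.037), Sardh (0.042) and Ahcy (0.04) passed with edgeR, and Dmgdh also passed without HFD+RE 3 (0.044) and without HFD+AE 3 and HFD+RE 3 together (0.014). Beside these differences, the mitochondrial ribosomal RNA share was lower and the hepatocyte marker sum higher in each HFD+AE library than in each HFD library. Periportal hepatocyte markers summed to 7029 to 7508 CPM in HFD+AE and 5046 to 5605 CPM in HFD, and endothelial markers to 152 to 280 CPM in HFD+AE and 81.3 to 137 CPM in HFD. Pericentral hepatocyte markers (6 of 6 tested) summed to 15830 to 22170 CPM in HFD+AE and 9001 to 12280 CPM in HFD. Cyp2e1, at 6080 to 18100 CPM over all libraries, was the most abundant of them (adjusted p = 0.072), while Glul and Lgr5 had adjusted p of 0.95 and 0.78. Lower in every HFD+AE than in every HFD library were the sums of neutrophil markers (2.48 to 3.52 CPM in HFD+AE and 7.20 to 13.2 CPM in HFD), B and plasma cell markers (5.23 to 7.10 CPM in HFD+AE and 8.94 to 32.3 CPM in HFD) and, narrowly, stellate cell markers (255 to 261 CPM in HFD+AE and 263 to 362 CPM in HFD). The part of these in the differences was not tested.

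Dmgdh and Bhmt2 lie head to head on chromosome 13, and the 133 bases between their RefSeq start sites, at 93674436 on the plus strand and 93674302 on the minus strand, are shown because the sequence before one gene is also that before the other. It is given on the Dmgdh strand with CpG dinucleotides in capitals.
Bhmt2 to Dmgdh, chr13:93674303-93674435, plus strand: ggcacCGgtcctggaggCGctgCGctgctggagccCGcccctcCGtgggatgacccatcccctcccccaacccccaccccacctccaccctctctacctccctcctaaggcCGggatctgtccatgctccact
The stretch held 6 CpG dinucleotides and 69.9% G and C, and none of the motif letters named above was in the 250 bases before either start. Across the 12 libraries the log2 levels of the pair had r = 0.61, and 0.58 after group means were subtracted. Each gene had a higher r with some other members and a lower r with others. Bhmt2 had 0.92 with Sardh and 0.86 with Ahcy (0.835 and 0.82 within groups), and Dmgdh had 0.785 with Cth (0.86 within groups). The r of the pair thus did not stand out, and all are descriptions over libraries that share depth and group.

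The remaining genes were closer between HFD+AE and HFD. Bhmt had 3035, 2627 and 1454 CPM in HFD+AE, against 2428, 2252 and 3235 CPM in HFD libraries, a log2 difference of -0.15 (SE 0.299, 95% interval -0.797 to 0.490, adjusted p = 0.77). HFD+AE 3, the library that stood apart, was the lowest of its group for Bhmt at 1454 CPM, beside 1397 CPM in the highest NC library. Cbs had 242, 251 and 362 CPM in HFD+AE, against 240, 256 and 258 CPM in HFD, with a log2 difference of 0.18 (SE 0.218, adjusted p = 0.62). Cth differed by 0.56 on the log2 scale (SE 0.296, adjusted p = 0.24), and of the 19 alternatives it was called in 1, without HFD+AE 3 and HFD+RE 3 (0.81, adjusted p = 0.03). Nnmt had 88.7, 111 and 120 CPM in HFD+AE, against 95.8, 185 and 159 CPM in HFD (-0.46, SE 0.381, adjusted p = 0.46).

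For HFD+RE against HFD, the same question for the RE training, none of the 10 genes passed with edgeR, where 0.0109% of all tested genes did (2 genes). At an unadjusted p below 0.05, 3 of 10 were higher and 0 lower, beside 3.99% of tested genes higher. DESeq2 called 1, Gnmt, beside 1.27% of the genes it adjusted (209 genes). This comparison and the preceding one share the HFD libraries. Gnmt had 1320, 1289 and 878 CPM in HFD+RE libraries, against 465, 763 and 512 CPM in HFD libraries, without overlap (log2 difference 1.003, SE 0.248, 95% interval 0.469 to 1.54, adjusted p = 0.28, and 0.014 with DESeq2). Cbs had 409, 391 and 348 CPM in HFD+RE, against 240, 256 and 258 CPM in HFD (0.61, SE 0.219, adjusted p = 0.43). Each HFD+RE library of Gnmt and Cbs was above the highest HFD library. In each HFD+RE library the mitochondrial ribosomal RNA share was also below, and the hepatocyte marker sum above, every HFD value. Periportal hepatocyte markers summed to 6830 to 7376 CPM in HFD+RE and 5046 to 5605 CPM in HFD. Neutrophil markers were at 2.71 to 7.16 CPM in HFD+RE and 7.20 to 13.2 CPM in HFD, and the adipocyte list, whose reads came almost all from Car3, at 2473 to 2963 CPM in HFD+RE and 3412 to 4310 CPM in HFD. The part of these in the differences was not tested.

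Ahcy had 1813, 1888 and 1294 CPM in HFD+RE, against 1073, 1470 and 1088 CPM in HFD, where HFD+RE 5 fell below HFD 2 (0.46, SE 0.207, adjusted p = 0.55). The other 7 genes overlapped between the groups, with log2 differences between -0.23 for Bhmt and 0.41 for Cth. HFD+RE 5 was the lowest library of its group for all 10 genes, and it had the highest mitochondrial ribosomal RNA share of that group, 1.71%, whose part in the levels was not tested. The median log2 difference of the 10 genes was 0.38, against 0.04 over all tested genes.

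The RE and AE trainings were set against each other directly as HFD+RE against HFD+AE. None of the 10 genes passed, and none had an unadjusted p below 0.05, in a comparison where edgeR called 0% of all tested genes (0 genes, with 1468 at an unadjusted p below 0.05), and DESeq2 called 0 of the 10, beside 0.198% of the genes it adjusted (32 genes). Mat1a had 5301, 5109 and 3395 CPM in HFD+RE, against 5502, 5551 and 5456 CPM in HFD+AE, each HFD+RE library being lower (log2 difference -0.26, SE 0.281, 95% interval -0.864 to 0.348, adjusted p = 0.75). Dmgdh had 423, 396 and 315 CPM in HFD+RE, against 595, 507 and 414 CPM in HFD+AE (-0.42, SE 0.217, adjusted p = 0.61). Cbs stood on the other side, with 409, 391 and 348 CPM in HFD+RE, against 242, 251 and 362 CPM in HFD+AE (0.42, SE 0.219, 95% interval -0.0472 to 0.895, adjusted p = 0.61). Dmgdh and Cbs each overlapped through 1 library of HFD+AE, number 3. For Gnmt the interval of the difference was -0.592 to 0.465 around -0.06. Pericentral hepatocyte markers summed to 8732 to 14920 CPM in HFD+RE and 15830 to 22170 CPM in HFD+AE. The adipocyte list, mostly Car3, summed to 2473 to 2963 CPM in HFD+RE and 3347 to 3849 CPM in HFD+AE. B and plasma cell markers summed to 9.01 to 12 CPM in HFD+RE and 5.23 to 7.10 CPM in HFD+AE. The part of these sums in the values was not tested.

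Set against NC rather than HFD, the trained groups on the high-fat diet show which genes stood away from the normal-diet level. For HFD+AE against NC none of the 10 passed with edgeR, where 1.38% of tested genes did, while 5 were higher and 1 lower at an unadjusted p below 0.05, beside 8.33% higher and 5.69% lower over all tested genes. DESeq2 called 5 of the 10, namely Mat1a, Bhmt, Bhmt2, Sardh and Cbs, beside 5% of the genes it adjusted (843 genes). Mat1a differed by 1.04 (SE 0.284, adjusted p = 0.098), Bhmt by 1.17 (SE 0.303, adjusted p = 0.084), Bhmt2 by 0.64 (SE 0.174, adjusted p = 0.098), Sardh by 0.94 (SE 0.25, adjusted p = 0.093) and Cbs by -0.85 (SE 0.22, adjusted p = 0.082) on the log2 scale. The groups of these 5 genes did not overlap, and neither did those of Ahcy (0.48, SE 0.207, adjusted p = 0.31). How many of all tested genes separate in this way was not counted. Bhmt passed with edgeR without HFD+AE 3 (1.42, adjusted p = 0.043), Bhmt (0.028) and Cbs (0.029) without HFD+AE 3 and HFD+RE 3, and Cbs (-1.03, 0.041) and Mat1a (1.399, 0.035) passed without NC 5. Gnmt, called lower in HFD, had an HFD+AE minus NC difference of 0.22 (95% interval -0.308 to 0.750, adjusted p = 0.75). Stellate cell markers stood at 255 to 261 CPM in HFD+AE and 138 to 157 CPM in NC. Pericentral hepatocyte markers stood at 15830 to 22170 CPM in HFD+AE and 9986 to 11750 CPM in NC, and neutrophil markers at 2.48 to 3.52 and 4.52 to 5.69 CPM. The part of these sums was not tested.

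For HFD+RE against NC none of the 10 passed with edgeR, where 3.96% of tested genes did, and 3 were higher and 0 lower at an unadjusted p below 0.05, beside 14.5% of tested genes higher. DESeq2 called those 3, Bhmt, Bhmt2 and Mat1a, beside 11.7% of the genes it adjusted (2063 genes). Bhmt had 2146, 2544 and 2039 CPM in HFD+RE, against 1397, 1053 and 722 CPM in NC, without overlap (log2 difference 1.08, SE 0.302, adjusted p = 0.061). Its adjusted p fell below the threshold without HFD+AE 3 (0.029), without HFD+RE 3 (0.034), without both (0.0095), with no low-count filter (0.013) and with a gene length trend removed (0.046). Bhmt2 had 232, 259 and 206 CPM in HFD+RE, against 172, 171 and 146 CPM in NC (0.51, SE 0.174, adjusted p = 0.10), and passed without HFD+AE 3 and HFD+RE 3 (0.038). Cbs in HFD+RE lay partly within the NC range, since NC 5 was at 379 CPM (-0.43, SE 0.219, adjusted p = 0.24), and Gnmt differed by 0.16 (95% interval -0.372 to 0.686, adjusted p = 0.71). Stellate cell markers stood at 216 to 321 CPM in HFD+RE and 138 to 157 CPM in NC, and B and plasma cell markers at 9.01 to 12 and 5.87 to 6.64 CPM. The part of these sums was not tested. Whether the HFD+RE and HFD+AE groups returned toward NC was not tested as a separate quantity, because the comparisons share the HFD and NC libraries.

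The transcripts of Bhmt, of the remethylating branch, and Cbs, of transsulfuration, can be compared within a library by their ratio in TPM. Library scaling does not affect this ratio, and it does not measure flux through either branch. The ratio, chosen after the values were seen and given without a test, was 6.82, 8.46 and 7.62 in HFD+RE, 16.3, 13.6 and 5.22 in HFD+AE, 13.2, 11.4 and 16.3 in HFD, and 3.33, 2.22 and 2.47 in NC libraries. Every library on high-fat diet was above every NC library, and every HFD+RE library was below every HFD library. HFD+AE spanned both, its lowest value being that of HFD+AE 3. The ratio of Gnmt to Mat1a was 0.716, 0.726 and 0.743 in HFD+RE, 0.537, 0.581 and 0.788 in HFD+AE, 0.427, 0.553 and 0.418 in HFD, and 1.33, 1.66 and 0.756 in NC. All NC libraries were above all HFD libraries in this ratio, and the HFD+RE libraries lay between them. The paired genes differ in length, with Gnmt at 1206 and Mat1a at 3468 bases, and Bhmt at 5758 and Cbs at 7485. The Spearman rho of log2 level with gene length differed between libraries, from 0.335 in HFD+RE 4 to 0.419 in HFD+RE 3. Its part in the ratios was not tested.

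**Figure D3:**
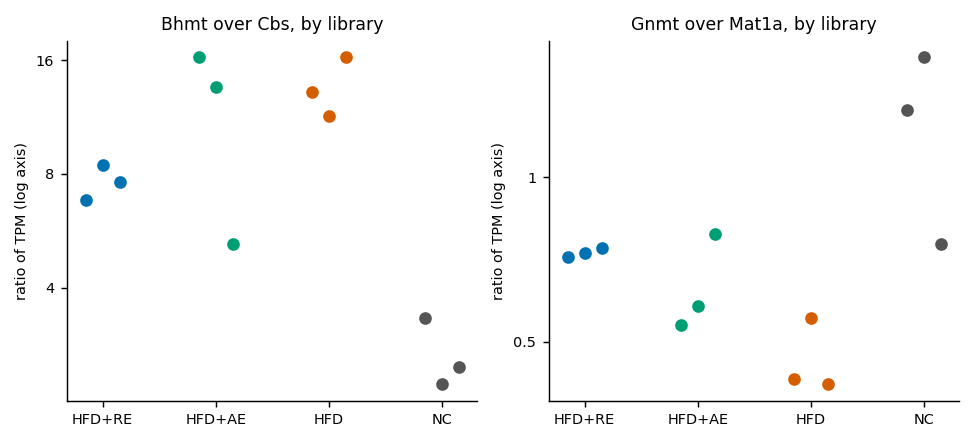
Ratio of TPM of Bhmt to Cbs (left) and of Gnmt to Mat1a (right) on log2-spaced axes, 1 point per library, by group. Bhmt to Cbs is between 11.4 and 16.3 in HFD and between 2.22 and 3.33 in NC, and Gnmt to Mat1a between 0.418 and 0.553 in HFD and between 0.756 and 1.66 in NC.

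Among themselves the 10 genes did not vary as a block. Of 45 pairs, 16 had r above 0.5 and 12 below 0 across the 12 libraries, and 14 and 12 after group means were subtracted, as descriptions over libraries that share depth and group. Gnmt, Ahcy, Sardh and Bhmt2 stayed close within groups, with r = 0.93 for Gnmt and Sardh, 0.93 for Gnmt and Ahcy and 0.83 for Bhmt2 and Sardh. Dmgdh varied most closely with Cth (0.79 across libraries and 0.86 within groups). Mat1a and Nnmt had r = 0.32 across libraries and 0.86 within groups. Bhmt had its lowest r with Cbs, at -0.68 across libraries, and -0.07 within groups. Mat1a and Cbs were opposed at both levels, at -0.56 and -0.46.

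**Figure D4:**
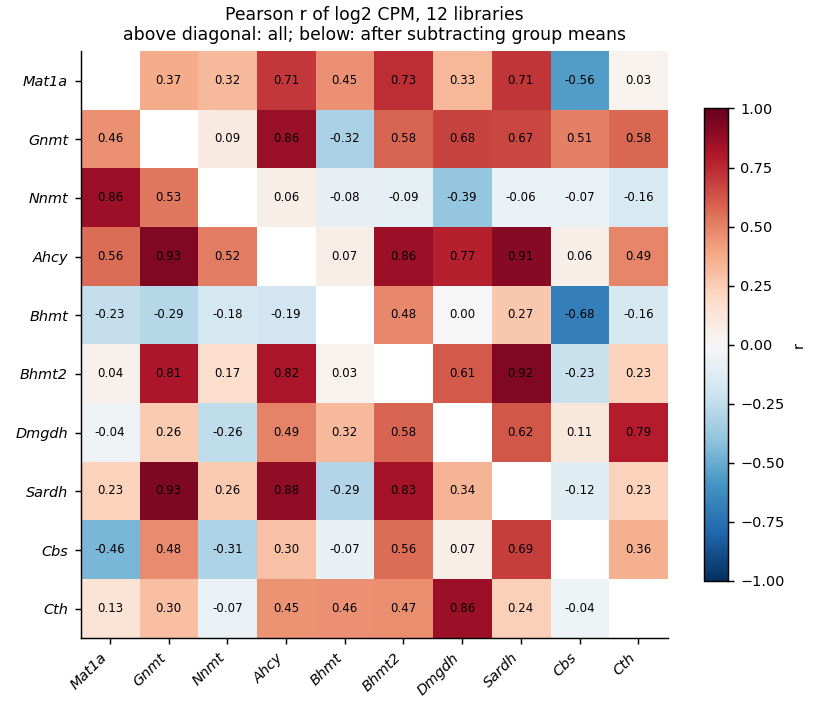
Pearson r of log2 CPM for each pair of the 10 genes over 12 libraries (colour scale from -1 to 1); cells above the diagonal use all variation, cells below it the variation left after group means were subtracted. Bhmt with Cbs changes between -0.68 above and -0.07 below the diagonal, while Gnmt with Ahcy is high in both.

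Over 14137 candidate genes, the gene whose log2 level followed each member most closely across the 12 libraries was found by Pearson r. For Gnmt it was Mfsd4b1 (r = 0.97), for Mat1a Gpt2, an alanine aminotransferase (0.97), and for Bhmt Agxt2, another mitochondrial aminotransferase (0.94). Sgk2 followed Cbs (0.94), Dpys followed Sardh (0.97), Mapk9 followed Dmgdh (0.97) and Mtrf1 followed Cth (0.97), with Apob and Baat next for Cth (both 0.96). Aph1a followed Bhmt2 (0.97) and Hgsnat followed Ahcy (0.97). The closest gene to Nnmt, Hmgb1-ps1, reached 0.91. These are the highest of many r values over libraries of 4 groups and are given as descriptions.

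Around these enzymes, 88 tested genes in 8 lists cover the rest of the pathway. In HFD against NC 6 rose, 8 fell and 74 did not pass, with a median log2 change of 0.01, the same as over all tested genes. The called share, 15.9%, was close to the 15.6% of all tested genes, so the counts by list that follow describe these genes and set nothing about the pathway apart. In the methionine cycle and salvage list, 0 of 12 rose and 2 fell. These were Mtr, the folate-dependent methionine synthase, at 8.71 ± 0.836 CPM in HFD and 14.9 ± 1.23 CPM in NC (log2 change -0.78, SE 0.243, adjusted p = 0.046), and Ahcyl2, a relative of Ahcy (-0.98, SE 0.214, adjusted p = 0.014). A transcript of each remethylation route was thus measured, with Bhmt higher and Mtr lower in HFD. The Mtr call was lost in 11 of the 19 alternatives, whereas Bhmt was called in 15 of the 19.

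Of 13 cysteine, taurine and glutathione genes 1 rose and 2 fell. Csad, which makes hypotaurine from cysteine sulfinate downstream of Cbs and Cth, had 56.0, 39.8 and 44.9 CPM in HFD libraries, against 176, 219 and 214 CPM in NC libraries. Its groups were far apart, with a log2 change of -2.11 (SE 0.27, adjusted p = 0.0015), and it was the only one of the 14 called genes to keep its call under each of the 19 alternatives. Csad was also lower in HFD+AE against NC (-1.65, SE 0.265, adjusted p = 0.012), and in HFD+RE against NC (-1.56, SE 0.265, adjusted p = 0.01). Without HFD+AE 2 the HFD+AE result was not called. With the library number fitted as a block, neither the HFD+AE (0.13) nor the HFD+RE result (0.055) was called. Got1, a cytosolic aspartate aminotransferase, fell (-1.70, SE 0.449, adjusted p = 0.028; -0.84, adjusted p = 0.098, without NC 5), although 1 NC library, NC 4, at 110 CPM lay inside the HFD range and NC 5 stood at 623 CPM. Mpst, a mercaptopyruvate sulfurtransferase, rose (0.76, SE 0.242, adjusted p = 0.049), a call lost in 12 of the 19 alternatives.

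Among the small-molecule methyltransferases that use SAM, 1 of 8 rose. Gamt, which makes creatine, had 261, 198 and 316 CPM in HFD libraries, against 120, 97.0 and 108 CPM in NC libraries (1.25, SE 0.285, adjusted p = 0.017). It was likewise higher in HFD+RE than in NC (1.45, SE 0.287, adjusted p = 0.018), as was Inmt, an indolethylamine methyltransferase (0.90, SE 0.195, adjusted p = 0.025). Gamt was thus called in the opposite direction to Gnmt in HFD liver.

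The folate list had 1 of 17 higher, Mthfs (1.26, SE 0.303, adjusted p = 0.021), and 1 lower, Folr2 (-2.75, SE 0.762, adjusted p = 0.032). Folr2, a folate receptor also known from macrophages, was at 0.319 ± 0.282 CPM in HFD and 2.10 ± 1.01 CPM in NC. Summed Kupffer cell and macrophage markers (6 of 6 tested) were at 56.1 to 133 CPM in HFD and 145 to 226 CPM in NC, and their part in the Folr2 change was not tested. Of 9 glycine and serine genes, Gldc, of the glycine cleavage system, fell (-1.29, SE 0.338, adjusted p = 0.027), and Phgdh, the first enzyme of serine synthesis, rose (2.15, SE 0.556, adjusted p = 0.026) at a low level of 0.441 CPM in HFD and 0.0997 CPM in NC.

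In the choline list, which holds the transporters and enzymes that lead to betaine or phosphatidylcholine, edgeR called 0 of 10 genes in each of the 6 comparisons. For HFD against NC 3 of these had an unadjusted p below 0.05 and DESeq2 called 1. The corresponding counts were 4 and 2 for HFD+AE against HFD, 1 and 1 for HFD+RE against HFD, 1 and 0 for HFD+RE against HFD+AE, 2 and 0 for HFD+AE against NC, and 3 and 1 for HFD+RE against NC. Of all 18305 tested genes, 6352, 4826, 1605, 1468, 2566 and 4476 had an unadjusted p below 0.05 in these comparisons, in the same order. DESeq2 called 4364, 2211, 209, 32, 843 and 2063 genes. Chdh, which oxidises choline to the betaine used by Bhmt, had 104, 173 and 74.5 CPM in HFD libraries, against 220, 242 and 169 CPM in NC libraries, with HFD 2 inside the NC range. Pemt, which makes phosphatidylcholine with SAM, had 261, 237 and 258 CPM in HFD and 201, 201 and 197 CPM in NC libraries. In Pemt every HFD library was above every NC library, a separation whose share over all tested genes was not counted. With edgeR no gene of the choline list was called together with Bhmt in HFD against NC, while DESeq2 called 1.

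Of 9 nicotinamide genes beside Nnmt, Aox3, an aldehyde oxidase, fell (-1.93, SE 0.476, adjusted p = 0.022), and Nmnat3, which makes NAD, rose (1.14, SE 0.235, adjusted p = 0.012). Of 10 regulators, Hnf4a, a nuclear receptor of hepatocyte identity that is also in the hepatocyte marker list, had 495, 716 and 545 CPM in HFD libraries, against 1048, 980 and 1114 CPM in NC libraries. It fell by 0.84 on the log2 scale (SE 0.19, adjusted p = 0.016), while Ppara rose (0.55, SE 0.175, adjusted p = 0.049). This Ppara call was lost in 11 of the 19 alternatives. In each of these lists most genes did not pass.

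Of the 14 genes called in HFD against NC, 13 lost their call without HFD 1 and 13 without HFD 3, 11 without NC 4, 8 without NC 2, 5 without NC 5 and 3 without HFD 2, and 2 to 3 without HFD+RE 4, HFD+RE 5, HFD+AE 1 or HFD+AE 2. Mtr and Mpst were not called with the length trend removed, Aox3, Folr2, Got1 and Ppara with no low-count filter, and Got1 with the 2 groups alone. With edgeR, 0 of the 88 genes were called in HFD+AE against HFD. At an unadjusted p below 0.05 there were 19, beside 4826 of all 18305 tested genes. DESeq2 called 9, beside 12.1% of the genes it adjusted. HFD+RE against HFD also had 0 called by edgeR, and 7 at an unadjusted p below 0.05, beside 1605 of the 18305. There DESeq2 called 1, beside 1.27%. HFD+RE against HFD+AE had 0 called by edgeR, and 4 at an unadjusted p below 0.05, beside 1468 of the 18305. There DESeq2 called 0, beside 0.198%. In HFD+AE against NC 1 of the 88 rose and 2 fell (3.41%, beside 1.38% of all tested genes), namely Ppara (0.92, SE 0.176, adjusted p = 0.025), Csad, and Mthfd2, a mitochondrial folate enzyme at 0.460 ± 0.144 CPM in HFD+AE and 1.83 ± 0.696 CPM in NC (-1.97, SE 0.369, adjusted p = 0.024). These calls of Ppara and Mthfd2 were lost without HFD+AE 2 or NC 4, that of Ppara also without HFD+AE 1, NC 2 or NC 5, and that of Mthfd2 also without HFD+AE 3. Both were also lost with the 2 groups alone (0.056 for Ppara and 0.08 for Mthfd2). In HFD+RE against NC 3 rose (Gamt, Inmt and Nmnat3) and 3 fell (Ahcyl2, Csad and Hnf4a), or 6.82%, beside 3.96% of all tested genes. Of these, 4 lost their call without HFD+RE 4, HFD+RE 5, NC 2 or NC 4, and 2 without HFD 1, HFD 3, HFD+AE 1, HFD+AE 2 or NC 5. Csad and Nmnat3 kept theirs without each single library. With the replicate block, which fits the library number as a factor, 12 of the 14 calls in HFD against NC were lost. Of the library numbers only 2 occurs in both of these groups, so the block largely overlaps with the diet contrast. The loss of calls therefore cannot be assigned to the numbers. In HFD+AE against NC 3 of the 3 calls were lost with the block. In HFD+RE against NC 6 of the 6 were lost with the block, among them Csad (0.055) and Nmnat3 (0.068). With the 2 groups alone Ahcyl2 (0.096), Csad (0.061), Hnf4a (0.097) and Inmt (0.07) were not called, nor was Inmt with the length trend removed (0.062) or Hnf4a with no low-count filter (0.067).

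**Figure D5:**
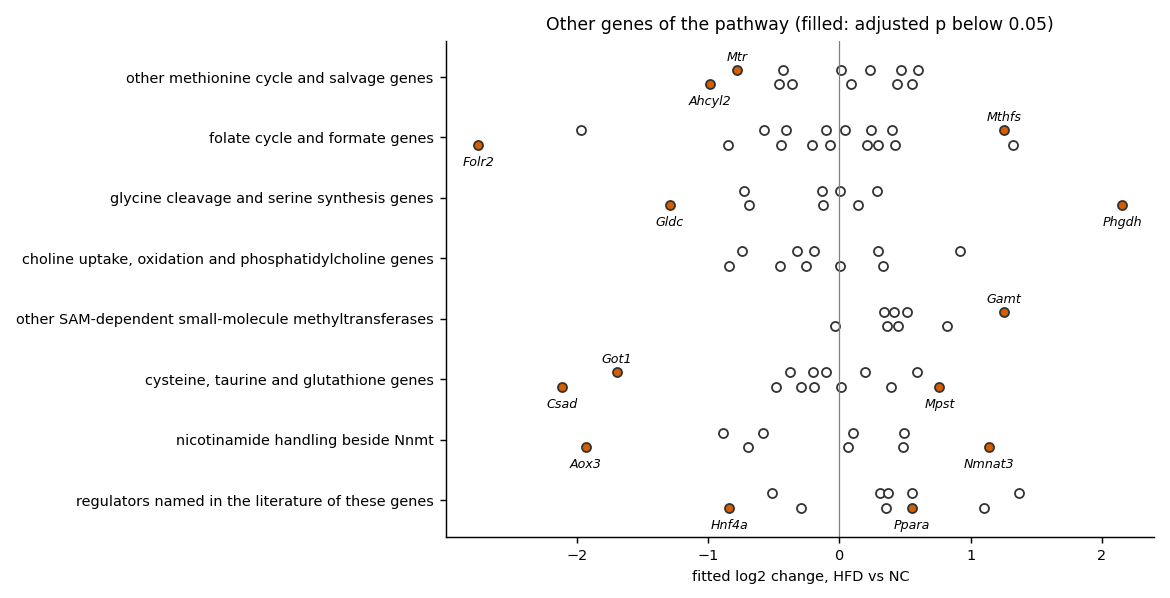
Fitted log2 change in HFD against NC (x axis) of the other genes of the pathway, 1 point per gene, by list (rows); filled points with names passed an adjusted p of 0.05. Filled points lie on both sides of 0 and run between -2.75 for Folr2 and 2.15 for Phgdh, and the choline row has none.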

How the data were processed

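RNA was measured by bulk sequencing in 12 liver libraries, 3 for each of 4 groups taken from the labels. The counts are whole reads per gene as deposited by the authors, made with featureCounts 2.0.6 per the file headers. Fastp, HISAT2 2.2.1, DESeq2 1.40.1 and the mm10 build are named in the submitters' processing notes. The strand setting of counting is not given in the sources used here, so reads of Bhmt, Sardh and Dmgdh cannot be told apart from those of antisense genes that share 187, 188 and 215 exon bases (Gm15622, Sardhos and AW495222). These carried 1.63%, 0.0131% and 0.0609% as many reads. Gene lengths in the deposited table gave TPM. Coordinates of all 10 genes in the table matched GENCODE M21.

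Counts were tested with edgeR 4.0.16 (R 4.3.3): TMM scaling, filterByExpr with a minimum count of 10, 1 robust quasi-likelihood fit over 12 libraries and Benjamini-Hochberg adjustment over 18305 genes, called below 0.05. Differences are on the log2 scale, with 95% intervals. Log2 CPM for correlations used a prior count of 2. DESeq2 1.42.0 was an alternative, as were other scaling, no filter, the 2 groups alone, a length trend, a replicate block and leaving out libraries. Totals of 44373214 to 77665729 reads leave little counting error for these genes. No 2 libraries agreed within sampling noise (smallest chi-square per degree of freedom 63.6 over 66 pairs).

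The members, and the lists of other genes and markers, were chosen with earlier results of these data known. Every member is named in every comparison or summarised. Of the other genes, those called are named, with Chdh and Pemt chosen after their values were seen. A few genes of these lists are not reported here and are left out of the lists' counts.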

Additional observations from a re-analysis of the deposited data

How the results depend on the processing

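Of 1140 values of the 10 genes under an alternative, 1086 kept their call, 15 lost and 39 gained one, and 0 called values changed sign. 40 values called in neither fit changed sign. In HFD against NC, 3 members and 2851 genes were called. DESeq2 called 4364 genes, the 2 groups alone 4928, and the fit without HFD+AE 3 and HFD+RE 3 6258. Leaving out 1 library gave 0 to 3 members and 411 to 4462 genes. In HFD+AE against HFD, 0 members and 9 genes became 5 and 2211 (DESeq2), 1 and 953 (no filter), 3 and 4253 (without HFD+AE 3 and HFD+RE 3), and 0 to 4 and 0 to 1930 without 1 library. The gene count was 95 with the length trend removed and 649 with 2 groups. In HFD+RE against HFD, 0 members and 2 genes became 1 and 209 (DESeq2). The gene count was 43 with no filter, 5 without HFD+AE 3 and HFD+RE 3, and 2 to 53 without 1 library. In HFD+RE against HFD+AE, 0 genes became 32 (DESeq2), 2 (no filter), 4170 (without HFD+AE 3 and HFD+RE 3) and 0 to 2 without 1 library. In HFD+AE against NC, 0 members and 253 genes became 5 and 843 (DESeq2), 3 and 408 (no filter), 0 and 82 (2 groups), 2 and 313 (without HFD+AE 3 and HFD+RE 3), and 0 to 2 and 44 to 373 without 1 library. In HFD+RE against NC, 0 members and 724 genes became 3 and 2063 (DESeq2), 1 and 1073 (no filter), 1 and 801 (length trend removed), 0 and 110 (2 groups), 2 and 5989 (without HFD+AE 3 and HFD+RE 3), and 0 to 1 and 112 to 3983 without 1 library. The cause of these shifts was not tested.

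With the replicate block the counts of genes called were 325, 2, 1, 1 and 15 in HFD against NC, HFD+AE against HFD, HFD+RE against HFD, HFD+AE against NC and HFD+RE against NC, and 0 members were called in each. Bhmt, Cbs and Gnmt then had 1.17, -1.07 and -0.90 in HFD against NC (adjusted p = 0.11, 0.071 and 0.12). HFD and NC share only the library number 2, so the block and the diet are largely confounded in that comparison. After group means were subtracted, same-numbered libraries correlated between -0.497 and 0.161 over 9 pairs, and others between -0.383 and 0.509 over 45. The highest r was thus not in a same-numbered pair. With group means taken over 3 libraries each, these values cannot settle whether the numbers mark a shared animal, litter or day.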
